A study of Mus musculus with 8 samples.

Results

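The genes of polyamine metabolism were followed in the ventral prostate of mice that carry human SKP2 in the probasin gene. The group consists of 10 named genes, Odc1, Amd1, Srm, Sms, Azin1, Oaz1, Oaz2, Sat1, Paox and Smox, which were taken by symbol from the 36333 genes of the deposited table. All 10 were expressed above the filter used here, a TPM (reads of a gene per transcript length, scaled to a fixed total) no lower than 1 in 4 or more of the 8 mice, which 13080 genes passed. Sat1, the first enzyme of polyamine breakdown, was 1.71-fold higher in hSKP2-KI than in WT prostates on the values as deposited. After median-ratio scaling of the libraries the difference was smaller, with means of 159 and 112 TPM. Sat1 was called higher under each scaling of the data that was tried. Srm, the spermidine synthase, was not called on the values as deposited and was called lower after median-ratio scaling. That call was kept in 4 of the 8 fits that leave out a mouse. Odc1, which opens the pathway, had the largest negative difference without passing the test. Sms, Oaz2 and Smox were called higher only on the values as deposited.

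Polyamines are small cations that bind nucleic acids, and the prostate makes and secretes them in larger amounts than most other tissues, under the control of androgen. Odc1 (ornithine decarboxylase) makes putrescine from ornithine, Amd1 (adenosylmethionine decarboxylase) supplies the aminopropyl groups, Srm adds one of them to putrescine to give spermidine, and Sms (spermine synthase) adds another to give spermine. The antizymes Oaz1 and Oaz2 bind the Odc1 protein and send it to the proteasome, and Azin1, an Odc1 relative without decarboxylase activity, captures antizyme. In the opposite direction, Sat1 acetylates spermidine and spermine, Paox oxidises the acetylated forms, and Smox turns spermine directly back into spermidine.

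Libraries were prepared from poly-A RNA of whole ventral lobes from 4 hSKP2-KI males and 4 wild-type (WT) males, all aged 12 months, with 1 library from each mouse. The hSKP2-KI mice hold the human SKP2 coding sequence behind a P2A peptide in exon 1 of the endogenous, X-linked probasin gene (Pbsn), so SKP2 follows the Pbsn promoter and is made where Pbsn is active, in the prostate epithelium. They were bred from heterozygous females and WT FVB/N males, and the sources do not say which of the knock-in lines gave these samples. The paper's sequencing methods name no strain for either group. The comparison asks which genes differ between the prostates of the 2 genotypes.

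The genes of the knock-in followed the labels. Skp2 stood at 48.1 ± 10.1 TPM (SD, n = 4) in hSKP2-KI and at 1.75 ± 0.528 TPM (SD, n = 4) in WT prostates, and Pbsn at 115 ± 39.6 TPM (SD, n = 4) and 5984 ± 2447 TPM (SD, n = 4). How reads from the human insert were assigned is not given in the sources used here. Every library sums to 1000000 TPM, so the depth behind a value is unknown and no counting interval can be given. The secretory genes Sbp, Spink1 and Sbpl took between 40.4% and 45.8% of this fixed total in WT and between 32.1% and 34.3% in hSKP2-KI prostates, and over all tested genes the median log2 fold change was 0.23 in place of 0. Each difference is therefore given on the TPM as deposited and again after median-ratio scaling, which multiplies each library by 1 factor and puts this median at -0.01. Differences are on the log2(TPM + 1) scale, tested with limma and adjusted over all tested genes after Benjamini and Hochberg, and a gene was called at an adjusted p under 0.05.

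TPM is per transcript length, so the levels of the members can be ordered. In WT prostates the order from high to low was Amd1, Oaz1, Odc1, Srm, Sat1, Oaz2, Azin1, Paox, Sms and Smox. Amd1 and Oaz1 lay above 99.1% and 99.0% of the tested genes, Odc1 above 98.0% and Srm above 97.3%. Sms, which makes spermine, was at the other end, above 37.96% of the tested genes, and Smox above 32.0%. The ranges of Amd1 and Oaz1 overlapped in both genotypes, as did those of Paox and Sms, while Srm and Sat1 overlapped only in hSKP2-KI prostates. All other neighbours in this order were separate in both genotypes.

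**Figure D1:**
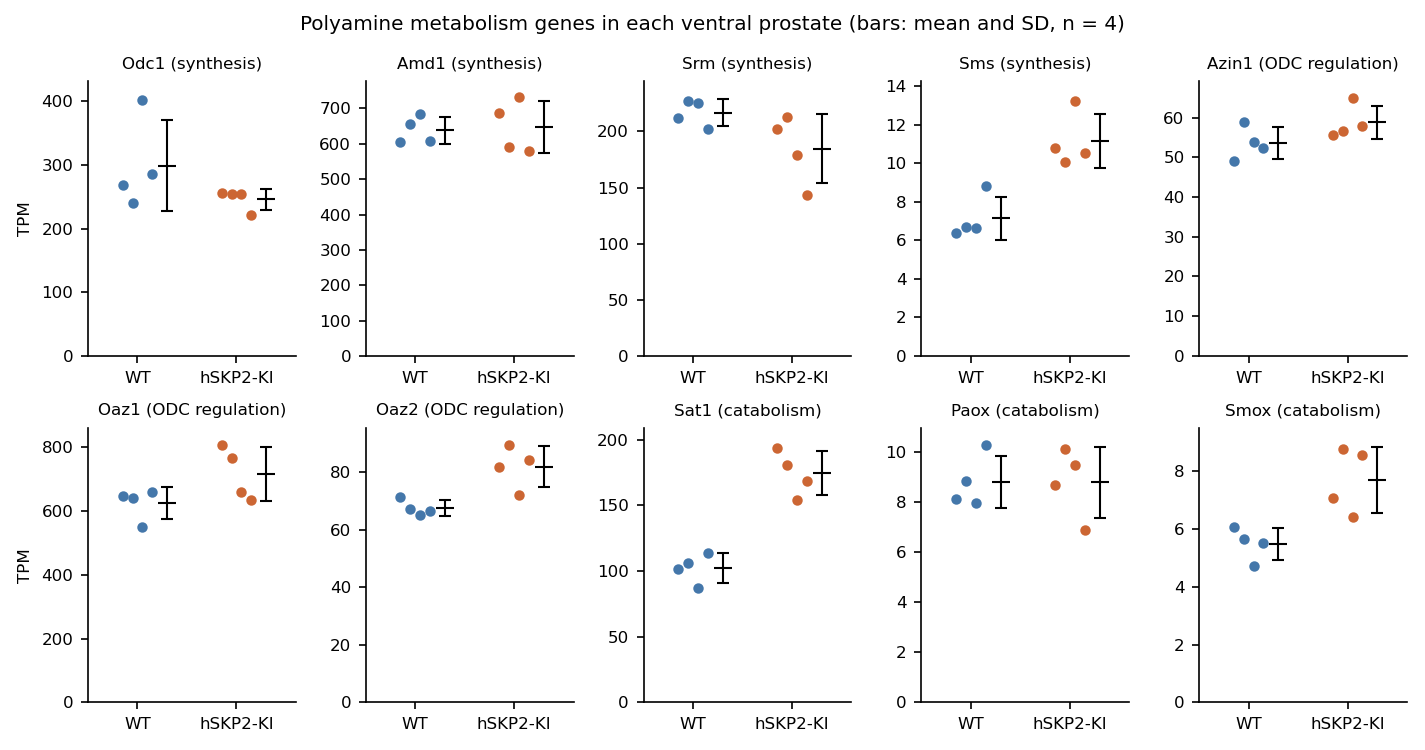
TPM of the 10 members in each mouse, with WT in blue and hSKP2-KI in orange, 1 panel for each gene and its own linear axis from 0. Black bars give the mean and SD of 4 mice, and the genotypes do not overlap for Sms, Oaz2, Sat1 and Smox.

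The synthesis genes did not move as a block. Odc1 (chr12:17544808-17551502) had a TPM of 268, 240, 401 and 286 in the WT prostates and of 255, 254, 254 and 221 in the hSKP2-KI prostates. The ranges overlapped because the lowest WT mouse fell within the knock-in range, and the highest WT mouse stood well above all others. The log2 fold change was -0.25 (SE 0.14, 95% interval -0.56 to 0.050, adjusted p = 0.159) on the TPM as deposited and -0.52 (95% interval -0.88 to -0.16, adjusted p = 0.0639) after median-ratio scaling. On the scaled TPM the genotypes did not overlap for Odc1, and all 4 knock-in values were below the WT values. Without WT replicate 3, the highest WT mouse, the log2 fold change was -0.10 (adjusted p = 0.379) as deposited and -0.36 after scaling. Spread also differed between the groups, with a coefficient of variation of 23.7% in WT and 6.70% in hSKP2-KI prostates.

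Srm (chr4:148591513-148594619) had a TPM of 212, 227, 225 and 202 in WT and of 202, 213, 179 and 144 in hSKP2-KI prostates. The upper knock-in mice reached the WT range and the other 2 lay below it. Its log2 fold change of -0.24 (SE 0.11, 95% interval -0.50 to 0.0079, adjusted p = 0.112) did not pass on the TPM as deposited, and it was -0.13 without hSKP2-KI replicate 4. After median-ratio scaling Srm was lower by a log2 fold change of -0.51 (SE 0.13, adjusted p = 0.0319), again with all knock-in values below all WT values. This call was lost when hSKP2-KI replicate 3 or WT replicate 1, 2 or 3 was left out, with adjusted p-values up to 0.0768, while the log2 fold change stayed between -0.58 and -0.39.

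Amd1 (chr10:40287458-40302188), the most abundant member, had a TPM of 604, 657, 683 and 607 in WT and of 689, 591, 732 and 580 in hSKP2-KI prostates. The knock-in values lay on both sides of the WT range, with a log2 fold change of 0.017 (95% interval -0.19 to 0.22, adjusted p = 0.892), or -0.25 (adjusted p = 0.162) after median-ratio scaling. Amd1 has a near-identical copy, Amd2, and Odc1 and Oaz1 have processed pseudogenes, and how reads shared by such copies were counted is not given in the sources used here.

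Sms (chrX:157443851-157492287) went the other way from Srm. Its TPM was 6.41, 6.69, 6.66 and 8.83 in WT and 10.8, 10.1, 13.2 and 10.5 in hSKP2-KI prostates, without overlap. The log2 fold change was 0.58 (SE 0.12, adjusted p = 0.00722), and the call held with each of the 8 mice left out. After median-ratio scaling it was 0.34 (95% interval 0.086 to 0.59, adjusted p = 0.0821), and Sms was not called with any mouse left out.

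Among the regulators of Odc1, the antizymes differed little. Oaz2 (chr9:65676548-65690300) had a TPM of 71.4, 67.0, 65.0 and 66.3 in WT and of 81.7, 89.5, 72.2 and 84.1 in hSKP2-KI prostates. The lowest knock-in mouse was just above the highest WT mouse. The log2 fold change of 0.27 (SE 0.08, adjusted p = 0.0255) is close to the median of all tested genes, and after median-ratio scaling it was 0.0067 (95% interval -0.20 to 0.21, adjusted p = 0.973). The call on the deposited TPM was lost without hSKP2-KI replicate 2 or 4 or WT replicate 3 or 4 (adjusted p up to 0.0707).

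Oaz1 (chr10:80826656-80829290) had a TPM of 647, 639, 549 and 661 in WT and of 806, 767, 658 and 633 in hSKP2-KI prostates. The ranges overlapped, with 2 knock-in mice above all WT mice, and the log2 fold change was 0.19 (95% interval -0.026 to 0.42, adjusted p = 0.141), or -0.075 (adjusted p = 0.726) after median-ratio scaling. Azin1 (chr15:38487430-38519294) had a TPM of 49.0, 59.0, 53.9 and 52.4 in WT and of 55.6, 56.5, 65.0 and 57.9 in hSKP2-KI prostates. Its ranges overlapped as well, and its log2 fold change was 0.13 (95% interval -0.050 to 0.31, adjusted p = 0.215), or -0.13 (adjusted p = 0.238) after scaling.

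The amount of antizyme protein is not read from these values alone, since the ribosome must shift by a base at the stop codon of the upstream reading frame to make it, and polyamines favour this shift. The sites are shown because they are the point at which the pathway controls itself, and they are given on the strand of the gene in GRCm38, with the codon before the stop, the stop codon and the base after it in capitals. The Oaz1 site lies at chr10:80828283-80828312 and the Oaz2 site at chr9:65686260-65686289, both on the plus strand in exons, and 27 of the 30 bases are the same.
Oaz1: cggtggtgcTCCTGATgtccctcacccacc
Oaz2: ctgtggtgcTCCTGATgcccctcacccact

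The catabolic genes held the largest log2 fold change among the members. Sat1 (chrX:155213126-155216449) had a TPM of 102, 106, 86.9 and 114 in WT and of 194, 181, 154 and 169 in hSKP2-KI prostates. All 4 knock-in mice were above all WT mice, and the lowest knock-in value was 154 against a highest WT value of 114. The log2 fold change was 0.77 (SE 0.10, 95% interval 0.55 to 0.99, adjusted p = 0.00101) on the TPM as deposited and 0.50 (SE 0.10, 95% interval 0.27 to 0.73, adjusted p = 0.0160) after median-ratio scaling. With each mouse left out in turn Sat1 was called in 8 of 8 fits on either scale, with log2 fold changes of 0.69 to 0.82 as deposited and 0.43 to 0.56 after scaling.

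Smox (chr2:131491858-131525183) was low in both genotypes, with a TPM of 6.06, 5.65, 4.71 and 5.50 in WT and of 7.07, 8.77, 6.44 and 8.55 in hSKP2-KI prostates. The groups did not overlap. The log2 fold change was 0.42 (SE 0.12, adjusted p = 0.0240), the call was lost without hSKP2-KI replicate 2 or 4 or WT replicate 3 (adjusted p up to 0.0708), and after median-ratio scaling the value was 0.19 (95% interval -0.073 to 0.45, adjusted p = 0.338). Paox (chr7:140115735-140134334), which acts on the products of Sat1, had a TPM of 8.12, 8.82, 7.95 and 10.3 in WT and of 8.65, 10.1, 9.45 and 6.87 in hSKP2-KI prostates. The knock-in values covered nearly the whole WT range, with a log2 fold change of -0.0081 (95% interval -0.29 to 0.27, adjusted p = 0.963), or -0.25 (adjusted p = 0.204) after scaling.

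Sat1 and Sms, the members with the largest positive differences, both lie on chromosome X. The 250 bases before their start sites are shown because they lie directly before the transcripts of these 2 members, on the minus strand in RefSeq GRCm38.p6, at chrX:155216450-155216699 for Sat1 and chrX:157492288-157492537 for the most upstream Sms start. Capitals mark matches on either strand to GGGCGG (a GC box) in Sat1 and to CCAAT and CACGTG (an E-box) in Sms.
Sat1: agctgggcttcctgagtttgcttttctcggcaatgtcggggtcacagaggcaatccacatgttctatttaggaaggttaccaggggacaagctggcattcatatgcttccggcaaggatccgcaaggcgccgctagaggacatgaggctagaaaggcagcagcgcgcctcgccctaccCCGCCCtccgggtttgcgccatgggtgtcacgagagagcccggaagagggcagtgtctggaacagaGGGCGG
Sms: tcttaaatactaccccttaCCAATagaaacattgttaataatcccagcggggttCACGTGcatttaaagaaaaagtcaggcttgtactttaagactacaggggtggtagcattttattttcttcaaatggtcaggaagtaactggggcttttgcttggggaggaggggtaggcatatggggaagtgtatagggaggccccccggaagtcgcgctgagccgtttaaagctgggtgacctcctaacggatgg

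In Sat1 the GC boxes lie 72 and 6 bases before the start, and TGTTCT, the core hexamer of androgen response elements, lies 191 bases before it in lower case. In Sms the E-box lies 196 and the CCAAT box 231 bases before the start. The other Sms promoter, not printed, had 74.3% G and C and held 4 GC boxes, with no E-box or CCAAT box. Over windows of 300 bases, which add the first 50 transcribed bases, searched on both strands, 8 of the 10 members had an entry, with 10 promoters in all. No entry was matched for Srm and Azin1. The GC box was in 8 of these 10 promoters and in 35.7% of the 32851 mouse promoters, the CCAAT box in 2 and in 37.4%, and the E-box in 1 and in 7.15%. The GC box share was not matched for base content. G and C made up 60% to 78% of the member windows apart from the most upstream Sms window (50.3%), against a median of 52.7% over all promoters. The Paox windows overlap and share their GC boxes. The letters TATAAA were in 1 member promoter, that of Oaz1, and in 13.6% of all. The Oaz1 match begins 3 bases before the start and runs across it. The androgen hexamer was in 2 member promoters and in 19.0% of all, and TGACG (a part of the cAMP response element) in 3 and in 20.8%. TGACGTCA, the full element, which holds that part, was in 0 of them and in 1.79% of all promoters. These matches describe letters in a window and were not measured as binding.

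On the TPM as deposited 4 members were higher (Sms, Oaz2, Sat1 and Smox), 0 were lower and 6 were not called by limma, and 0 were lower at an unadjusted p under 0.05. Of all tested genes 32.7% were called higher and 1.23% lower, so the share of members called higher is near the background. The same 4 members were those without overlap between genotypes, against 35.1% of all tested genes. After median-ratio scaling 1 member was higher (Sat1), 1 was lower (Srm) and 8 were not called, against 6.91% of the tested genes called higher and 4.25% called lower. On this scale 1 member was above and 2 were below the WT range without overlap (Sat1, Odc1 and Srm), against 19.2% of the tested genes in either direction. The median log2 fold change of the members was 0.16 as deposited and -0.10 after scaling, below that of all tested genes in each case.

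By role, 1 of 4 synthesis genes, 1 of 3 regulators and 2 of 3 catabolic genes were higher as deposited, against 32.7% of all tested genes. After median-ratio scaling 1 synthesis gene was lower (Srm), 0 regulators were called and 1 catabolic gene was higher (Sat1). On that scale 6.91% of all tested genes were called higher and 4.25% lower. The median log2 fold changes of these groups were -0.11, 0.19 and 0.42 as deposited, and -0.38, -0.075 and 0.19 after scaling. Set against the median of all tested genes, the log2 fold change was 0.53 for Sat1, 0.35 for Sms, -0.48 for Srm and -0.49 for Odc1.

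**Figure D2:**
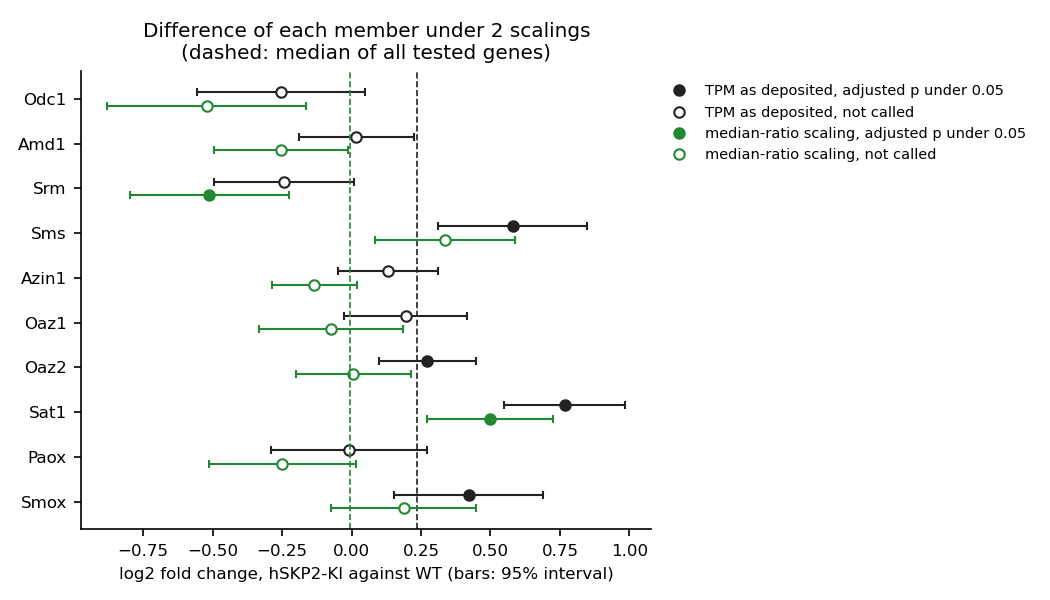
Log2 fold change of each member (horizontal axis, hSKP2-KI against WT) with its 95% interval, on the TPM as deposited in black and after median-ratio scaling in green. Filled points have an adjusted p under 0.05, and the dashed lines at 0.23 and -0.01 are the medians of all tested genes. Sat1 lies to the right of both lines and Odc1 and Srm to the left.

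Ratios of 2 members within a sample do not depend on the scaling of the libraries, apart from the pseudocount of 1. The ratios listed here are of the TPM itself, and the log2 differences are of (TPM + 1). For Srm to Sms, the enzymes that make spermidine and spermine, the ratio was 33.0, 33.9, 33.9 and 22.8 in WT and 18.7, 21.2, 13.5 and 13.7 in hSKP2-KI prostates. All 4 knock-in ratios were below all WT ratios, a difference of -0.82 on the log2 scale, which lay between -0.95 and -0.73 with each mouse left out. For Sat1 to Odc1, the first enzymes of breakdown and synthesis, the ratio was 0.380, 0.441, 0.217 and 0.399 in WT and 0.759, 0.710, 0.607 and 0.762 in hSKP2-KI prostates. Here all knock-in ratios were above all WT ratios, with a log2 difference of 1.02, between 0.79 and 1.14 with each mouse left out. Both reached p = 0.0286 in a two-sided exact permutation test, the smallest that 4 mice against 4 allow, and p = 0.1 after Benjamini-Hochberg adjustment over the 7 ratios compared. Both pair members that differed in opposite directions, and the ratios were chosen with earlier results of these data known. These p-values are therefore no separate support for the differences of the members. With 7 ratios, none passed the adjusted threshold of 0.05 and 2 had an unadjusted p under 0.05.

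The ratio of Odc1 to Oaz1, the enzyme and its main antizyme, differed by -0.45 on the log2 scale (exact permutation p = 0.0571, adjusted p = 0.1), with 3 of 4 knock-in mice below all WT mice. Without WT replicate 3 it was -0.24. Smox to Paox differed by 0.43 (exact permutation p = 0.0571, adjusted p = 0.1), with 3 of 4 knock-in mice above all WT mice. For Amd1 to Odc1 the difference was 0.27, for Oaz2 to Oaz1 0.078 and for Azin1 to Oaz1 -0.064, with exact permutation p-values of 0.143, 0.486 and 0.6 and overlapping groups. With each mouse left out, Smox to Paox lay between 0.28 and 0.54, Amd1 to Odc1 between 0.15 and 0.38, Oaz2 to Oaz1 between 0.0077 and 0.14 and Azin1 to Oaz1 between -0.15 and 0.021.

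**Figure D3:**
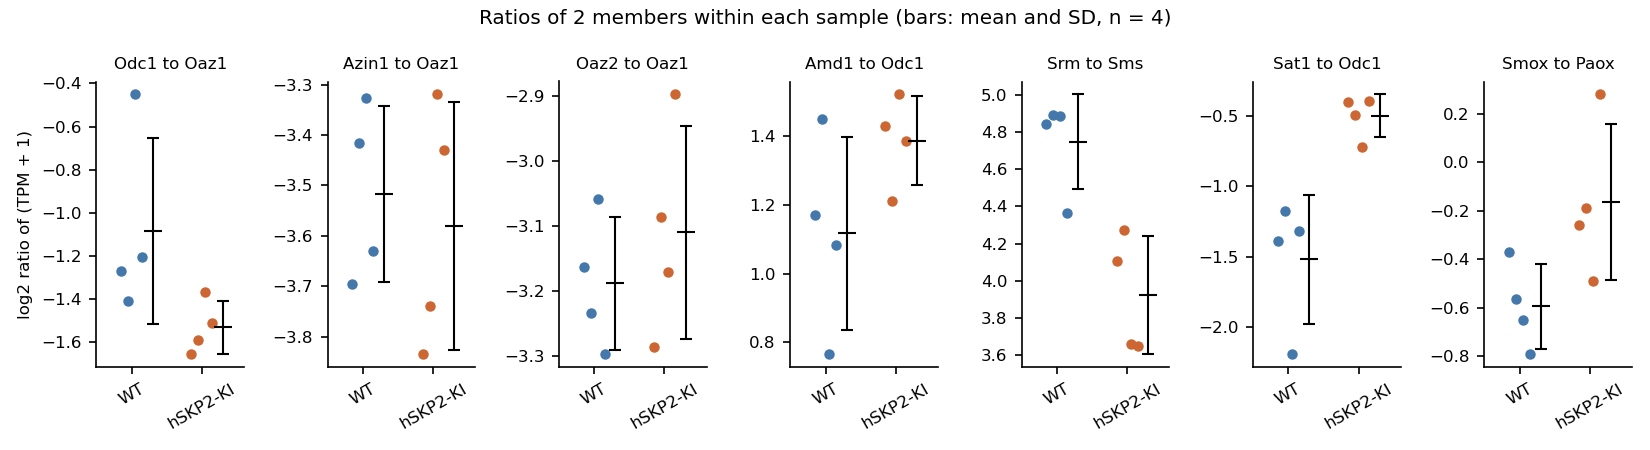
Log2 ratio of the (TPM + 1) of 2 members in each mouse, WT in blue and hSKP2-KI in orange, with black bars for the mean and SD of 4 mice. Each panel has its own axis, which does not start at 0, and the genotypes are separate for Srm to Sms and for Sat1 to Odc1.

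The lobes hold several cell types, and in bulk samples fewer cells of a type and less RNA per cell cannot be told apart. Epithelial markers (8 of 8 tested, such as Epcam and Krt8) summed to between 2338 and 2545 TPM in WT and between 2641 and 3309 TPM in hSKP2-KI prostates, a difference in their mean log2(TPM + 1) of 0.24, beside the median of 0.23 for all tested genes. Of these 8, 3 were called higher as deposited and 0 after scaling. For this and the other marker lists, the share of all tested genes called higher was 32.7% as deposited and 6.91% after scaling. Fibroblast markers summed to 448 to 630 TPM in WT and 814 to 1428 TPM in hSKP2-KI prostates, with 7 of 7 called higher as deposited and 3 after scaling. Smooth muscle markers (6 of 6, then 3) summed to 2032 to 2564 and 3011 to 4624 TPM, and endothelial markers (4 of 5, then 1) to at most 28.5 TPM in WT and 32.0 to 56.7 TPM in hSKP2-KI prostates. Leukocyte and macrophage markers summed to 76.0 to 166 and 187 to 572 TPM, with 5 of 7 called as deposited and 0 after scaling (limma, 3 at an unadjusted p under 0.05). Fibroblasts, muscle, vessels and leukocytes are also known to express Sat1, and their part in the differences of the members was not tested. Proliferation markers summed to 4.53 to 7.08 TPM in WT and 4.05 to 7.04 TPM in hSKP2-KI prostates, and the 2 that were tested were not called on either scale. Of this list Mki67, Ccnb1, Birc5 and Bub1 were under 1 TPM in all 8 samples. The seminal vesicle markers were all under 1 TPM, with Svs2 and Pate4 at 0 in every sample. Erythroid markers summed to 663 to 2373 TPM in WT and 1916 to 2963 TPM in hSKP2-KI prostates, with 3 of 4 tested called higher as deposited and 0 after scaling (limma, 3 at an unadjusted p under 0.05). Skeletal muscle markers overlapped between genotypes. The sums of the ventral secretory markers, which include Sbp, Spink1 and Sbpl, were lower in hSKP2-KI prostates without overlap, while their mean log2(TPM + 1) overlapped.

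Measured against the mean of the epithelial markers of the same sample, Sat1 was higher by 0.53 on the log2 scale and above all WT mice in 4 of 4 hSKP2-KI mice. Odc1 differed by -0.49 and Srm by -0.48, each below all WT mice in 4 of 4. These 3 members reached the smallest p of the two-sided exact permutation test, p = 0.0286 with 10 members compared and no adjustment. They are the same 3 that did not overlap after median-ratio scaling, where 19.2% of all tested genes did not overlap. The epithelial mean differed by 0.24 and the median of all tested genes by 0.23. Both measures thus take out nearly the same shift, and the second is no separate support for the first. The share of all tested genes without overlap relative to epithelial markers was not computed. Sms differed by 0.34 (exact permutation p = 0.0857), Paox by -0.24 (exact permutation p = 0.0857), Amd1 by -0.22 (exact permutation p = 0.114) and Smox by 0.18 (exact permutation p = 0.257). The differences of Azin1, Oaz1 and Oaz2 were -0.11, -0.042 and 0.037.

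Of 60 other genes of the pathway, chosen by role, 45 passed the filter. As deposited 14 were higher, 4 lower and 27 not called, and after median-ratio scaling 2 were higher, 9 lower and 34 not called. Over all tested genes 32.7% were higher and 1.23% lower as deposited, and 6.91% and 4.25% after scaling. Their median log2 fold change was 0.17 and then -0.088, below that of all tested genes in each case. Without WT replicate 3 the deposited calls numbered 10 in place of 18. In all, 6 genes were called in the same direction on both scales.

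The supply of arginine and ornithine held 3 of these 6. Arg1 (arginase, which makes ornithine from arginine) had a TPM of 9.66, 21.8, 15.2 and 19.0 in WT and of 7.12, 9.30, 2.92 and 5.78 in hSKP2-KI prostates. All knock-in values were below the WT values, and the log2 fold change was -1.29 (adjusted p = 0.00979), or -1.53 (adjusted p = 0.0109) after scaling. Gatm, which takes arginine into creatine synthesis and releases ornithine, had a TPM of 3.12, 4.55, 3.50 and 2.63 in WT and of 8.74, 10.3, 8.16 and 10.2 in hSKP2-KI prostates. It was higher without overlap by a log2 fold change of 1.23 (adjusted p = 0.000608), or 1.00 (adjusted p = 0.00249) after scaling. Asl, which makes arginine, was lower at 58.2 ± 1.498 TPM (SD, n = 4) in hSKP2-KI against 73.1 ± 1.41 TPM (SD, n = 4) in WT prostates, with log2 fold changes of -0.32 and -0.59 (limma adjusted p = 0.00523 and 0.00237). These 3 genes were called with each of the 8 mice left out, on either scale. Arg2, the other arginase, was more abundant than Arg1, at 103 ± 8.20 TPM (SD, n = 4) in hSKP2-KI and 108 ± 12.1 TPM (SD, n = 4) in WT prostates. It was not called as deposited (-0.074, limma adjusted p = 0.533) or after scaling (-0.34, limma adjusted p = 0.105). Ass1, of the same role as Asl, went the other way without overlap on either scale. It was called as deposited (0.68, limma adjusted p = 0.00276) and not after scaling (0.42, limma adjusted p = 0.0540). Oat, the most abundant gene of this role, was higher only as deposited (0.35, adjusted p = 0.00986), with 0.081 (adjusted p = 0.535) after scaling. In this role 4 of 9 tested genes were higher and 2 lower as deposited, and 1 was higher and 2 lower after scaling. The shares over all tested genes were 32.7% higher and 1.23% lower as deposited, and 6.91% and 4.25% after scaling.

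In the methionine cycle and salvage, which provides the aminopropyl donor and recovers what is left of it, 1 of 14 tested genes was higher and 2 were lower as deposited, and 0 were higher and 5 lower after scaling (limma, 0 higher also at an unadjusted p under 0.05). Beside these counts, 32.7% of all tested genes were higher and 1.23% lower as deposited, and 6.91% and 4.25% after scaling. Gnmt, a methyltransferase that uses adenosylmethionine, was lower at 76.9 ± 6.98 TPM (SD, n = 4) against 91.7 ± 6.74 TPM (SD, n = 4) in WT prostates. Its log2 fold change was -0.25 (adjusted p = 0.0437) and -0.52 (adjusted p = 0.00667) after scaling. Mri1, an isomerase of methionine salvage, was lower at 19.2 ± 2.83 TPM (SD, n = 4) against 25.0 ± 1.80 TPM (SD, n = 4), with -0.37 (adjusted p = 0.0259) and -0.63 (adjusted p = 0.0138). On the deposited TPM these calls were kept in 2 and 3 of the 8 fits that leave out a mouse, and after scaling in 8 of 8 for both. Without hSKP2-KI replicate 3 or 4 or WT replicate 3 or 4 neither was called as deposited. Gnmt was also lost without hSKP2-KI replicate 2 or WT replicate 2, and Mri1 without WT replicate 1. Mat2a, which makes adenosylmethionine and is the most abundant gene of this role, stood at 1952 ± 242 TPM (SD, n = 4) against 2050 ± 271 TPM (SD, n = 4) and was not called (-0.070, adjusted p = 0.654, and -0.34, adjusted p = 0.112, after scaling).

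In transport, 4 of 9 tested genes were higher and 0 lower as deposited (limma, 1 lower at an unadjusted p under 0.05), and 1 was higher and 1 lower after scaling. Of all tested genes 32.7% were called higher and 1.23% lower as deposited, and 6.91% and 4.25% after scaling. Cav1 (caveolin-1, listed here for its part in polyamine uptake and also abundant in endothelial cells, fibroblasts and smooth muscle) had a TPM of 58.9, 63.5, 48.1 and 73.6 in WT and of 98.7, 136, 92.8 and 107 in hSKP2-KI prostates. It did not overlap between genotypes, and its log2 fold change was 0.82 (adjusted p = 0.00329), or 0.55 (adjusted p = 0.0284) after scaling. The scaled call was lost without hSKP2-KI replicate 2 or 4 or WT replicate 1, 2 or 3. The stromal marker sums given above moved with Cav1, and their part in its difference was not tested.

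The remaining roles had no gene called on both scales. Among paralogs of members, Amd2 stood at 102 ± 8.89 TPM (SD, n = 4) in hSKP2-KI and 108 ± 9.59 TPM (SD, n = 4) in WT prostates, not called as deposited (-0.080, adjusted p = 0.475) and lower after scaling (-0.35, adjusted p = 0.0273). The scaled call was kept in 3 of the 8 fits that leave out a mouse and was lost without hSKP2-KI replicate 2 or 4 or WT replicate 1, 3 or 4. Eif5a, the translation factor whose hypusine residue is made from spermidine, was not called (0.13, adjusted p = 0.225, and -0.14, adjusted p = 0.390, after scaling), while 2 of the 4 genes of hypusine formation were higher as deposited and 0 after scaling (limma, 1 higher at an unadjusted p under 0.05). Tgm2, a transglutaminase that can join polyamines to protein, was higher as deposited (0.61, adjusted p = 0.00152) and not after scaling (0.34, adjusted p = 0.0691). Of the 6 tested genes of amine oxidation and crosslinking 2 were higher as deposited and 0 after scaling (limma, 2 higher at an unadjusted p under 0.05). For this role and for hypusine formation, the share of all tested genes called higher was 32.7% as deposited and 6.91% after scaling.

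**Figure D4:**
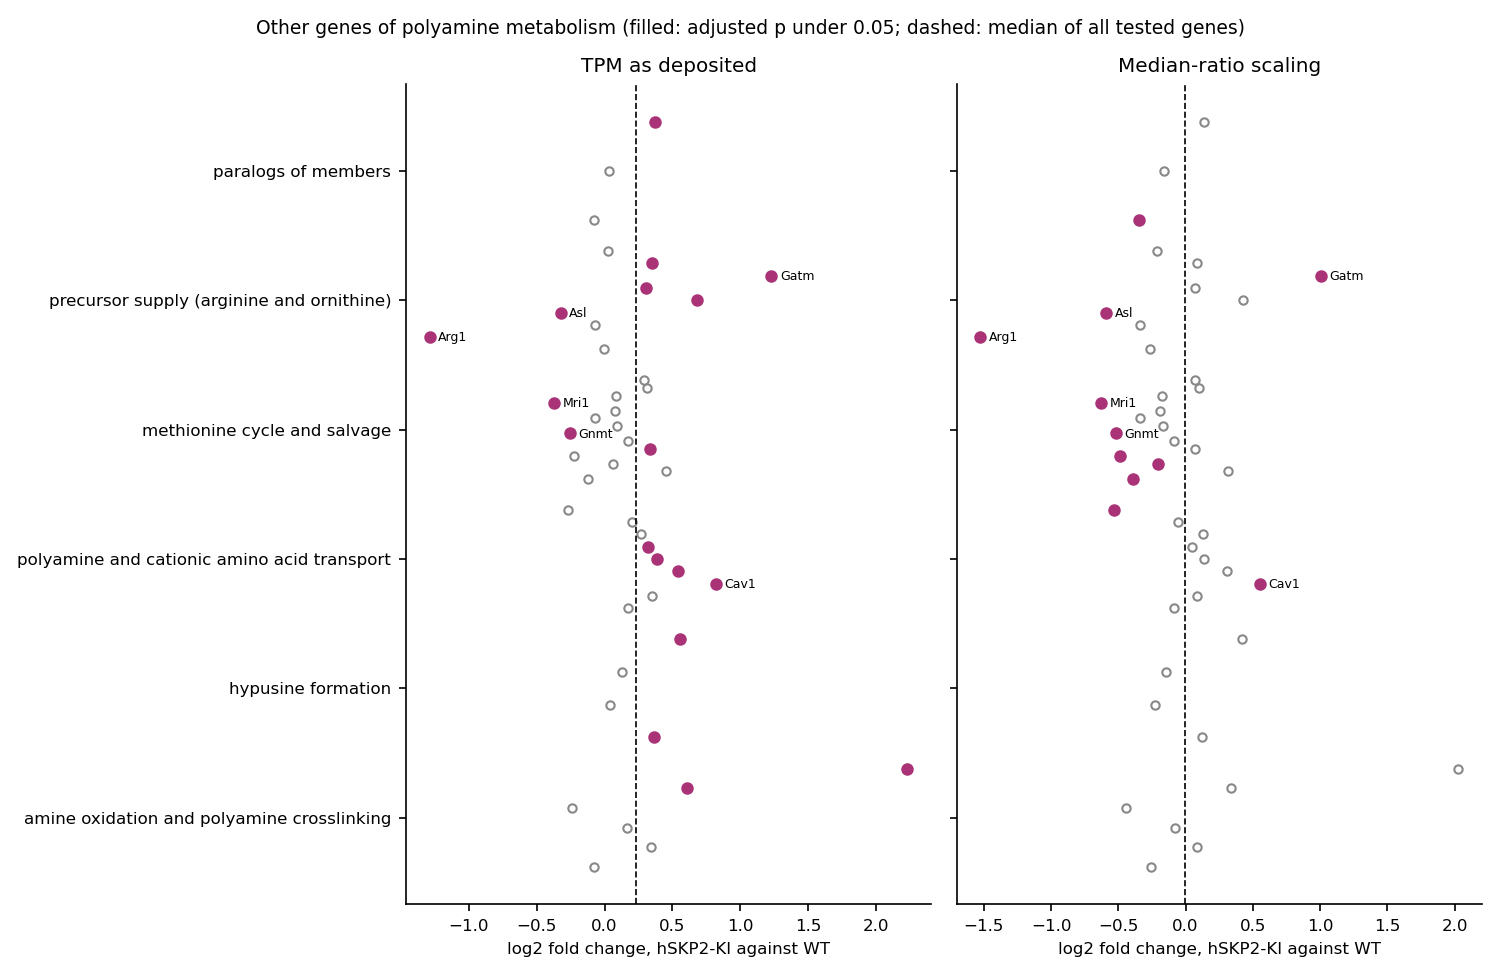
Log2 fold change (horizontal axis, hSKP2-KI against WT) of the 45 tested genes of the wider pathway, grouped by role, on the TPM as deposited at left and after median-ratio scaling at right. Filled points have an adjusted p under 0.05, those filled on the same side in both panels are named, and dashed lines are the medians of all tested genes. Arg1, Asl, Gnmt and Mri1 lie to the left and Gatm and Cav1 to the right in both panels.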

How the data were processed

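Ventral prostates of 8 mice were sequenced by the study as paired-end reads, which the authors trimmed and then mapped with CLC software. Per the labels the build was mm10 (GRCm38). The version, annotation, counting and strand settings are not given in the sources used here. The authors deposited 1 table of TPM for 8 samples, each sample summing to 1000000. It has 0 columns of other samples and no counts, so depth and counting error are unknown.

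Genes were tested where 4 or more samples reached a TPM of 1. log2(TPM + 1) was fitted with limma 3.58.1 (trended empirical Bayes, R 4.3.3), with Benjamini-Hochberg adjustment and a threshold of 0.05. Fold changes of low genes are understated by the added 1. Ratios and marker lists were compared by two-sided exact permutation over 70 assignments (scipy 1.17.1, Python 3.11.15). Figures used matplotlib 3.10.9. In simulated data for this comparison (13080 genes), 99% of 200 genes changed 2-fold were called, 4.81% of calls were unchanged genes, and 0 genes were called when none was changed. The changed genes were drawn from those above a minimum WT level, as many raised as lowered, with independent noise and no shift between libraries. No member differed 2-fold, so these shares do not describe the calls on the members.

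Groups came from the genotype label. Positions and promoters are from RefSeq GRCm38.p6, and exons at the antizyme sites from GENCODE. The members, the wider pathway list, the marker lists and the ratios were chosen with earlier results of these data known. Of the wider list, the genes named are those called in the same direction on both scales and the most abundant of each role, of which 1 is not reported here. Tgm4, Arg2 and Ass1 were named after their values were seen. Alternatives tried were other scalings, pseudocounts and filters, a replicate block, robust and weighted fits, and each mouse left out. The labels do not say whether replicate numbers pair the mice, and the main fit treats the mice as unpaired. Correlations across genes of the deviations of same-numbered mice were 0.22, -0.11, 0.17 and -0.01. Differently numbered mice were not compared, so these values cannot settle whether the mice were paired.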

Additional observations from a re-analysis of the deposited data

Results flagged for a closer look

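In 48 groups of 4 values examined, 4 held a value far from the other 3 by Dixon's criterion at the 95% level. Chance gives this in about 1 of 20 groups. The Odc1 TPM of 221 in hSKP2-KI replicate 4 stood below the other knock-in values, which lay between 254 and 255. The Sms TPM of 8.83 in WT replicate 4 stood above the other WT values of 6.41 to 6.69, and its log2 ratio of Srm to Sms on (TPM + 1), 4.37, was below the other WT ratios of 4.84 to 4.89. Without WT replicate 4 the log2 fold change of Sms was 0.67 and the log2 ratio of Srm to Sms differed between genotypes by -0.95. The log2 fold change of Odc1 was -0.20 without hSKP2-KI replicate 4 and -0.10 without WT replicate 3, against -0.25 with all mice. Tgm4, a transglutaminase of the prostate, had a TPM of 77.5 in hSKP2-KI replicate 1 and of 4.99 to 6.74 in the other knock-in prostates, against 2.16, 2.03, 1.06 and 1.58 in WT prostates. Its log2 fold change was 2.23 (limma adjusted p = 0.0280) with hSKP2-KI replicate 1 and 1.35 (limma adjusted p = 0.00181) without it. After median-ratio scaling it was 2.03 (limma adjusted p = 0.0939), and as deposited it also missed the threshold without WT replicate 1, 3 or 4.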

How the results depend on the processing

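The genes called numbered 4433 as deposited, 1460 after median-ratio scaling, 1317 after quantile normalization and 1330 when rescaled without the 20 most abundant genes. The members called numbered 4 and then 2 under each of these 3 scalings (Sat1 higher and Srm lower in each), and the genes of the wider pathway 18 and then 11, 10 and 10. With each mouse left out these counts lay between 2993 and 4677, between 2 and 4, and between 10 and 19. With a replicate block 5128 genes and the same 4 members were called, although the labels do not say that the numbers pair the mice. With no filter on low values 3416 genes and 3 members (Sms, Oaz2 and Sat1) were called. Sat1 kept its direction under all 26 alternatives listed for it and its call in every limma fit among them. Gatm, Arg1, Asl and Cav1 kept theirs under 17 alternatives that change 1 choice, but Cav1 was called in 3 of the 8 fits that combine median-ratio scaling with a mouse left out. Sms missed the threshold under 12 of 26, and Oaz2 and Smox each under 8 of 18. The 8 fits that combine median-ratio scaling with a mouse left out and a pseudocount of 0.1 for the values relative to epithelial markers, which left 3 members at the smallest p, were added after seeing the data. After median-ratio scaling Odc1 passed the threshold without WT replicate 2 (adjusted p = 0.0287). Differences near 0 changed sign, and none was called. Amd1 was at -0.25, -0.26 and -0.23 under the 3 scalings in the order above and at -0.22 relative to epithelial markers, with a range of -0.044 to 0.067 with each mouse left out. Azin1 was at -0.13, -0.087, -0.11 and -0.11, and Oaz1 at -0.075, -0.041, -0.053 and -0.042. Paox ranged from -0.074 to 0.092 and the log2 ratio of Azin1 to Oaz1 from -0.15 to 0.021 with each mouse left out. TPM holds no depth, so counting error at the low levels of Sms, Paox and Smox cannot be given.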
